A study of Mus musculus with 8 samples.

Results

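The basic helix-loop-helix (bHLH) genes Neurog1, Neurog2, Neurod1, Bhlhe22, Olig1, Olig2 and Olig3, 7 factors of neural and glial development, were followed in 8 mouse tumors of the type MPNST (malignant peripheral nerve sheath tumor, a sarcoma arising from Schwann lineage cells). They were picked by gene symbol, and 6 of the 7 were matched among the 20943 genes of the table; Neurod1 was not analysed here. All tumors came from mice carrying Plp-CreERT, a Cre recombinase that tamoxifen switches on in cells using the Plp promoter, which include Schwann cells, and floxed Nf1 and Cdkn2a, with 0.4 mg tamoxifen given from day 0 to 3 after birth. The 3 PRC2 loss tumors came from mice that were f/f for Nf1, for Cdkn2a and also for Eed, and are labelled -/- for all 3 genes. The 5 PRC2 wildtype tumors came from mice that were f/f for Nf1 and Cdkn2a, and are labelled -/- for both. Eed is needed by PRC2, the Polycomb complex that methylates a histone tail and keeps genes silent. PRC2 loss tumor 1 grew on a right paraspinal nerve, and tumors 2 and 3 on both sciatic nerves of a mouse or mice under 1 animal number, while the wildtype tumors carried 3 animal numbers and no site. No label gives the age at collection, and Plp-CreERT recombines other Plp-expressing cells too. Eed itself was at 8.76, 8.93 and 8.96 in PRC2 loss tumors on the deposited log2 scale, against 10.32, 10.33, 10.17, 10.19 and 10.23 in wildtype (limma adjusted p = 0.00021). Nf1 ran from 11.11 to 11.45 in PRC2 loss and from 10.81 to 11.34 in wildtype. Cdkn2a was uneven within PRC2 loss, at 10.58 in tumor 1, 11.004 in tumor 2 and 5.67 in tumor 3, against 7.43 to 8.17 in wildtype. The Eed transcript was thus lower where Eed is labelled -/-, while Nf1 and Cdkn2a transcripts were measured in tumors labelled -/- for them; which exons those reads cover is not known here, so gene-level values do not check these deletions.

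Factors of the bHLH class bind E-box DNA as dimers, usually with an E protein such as Tcf3, Tcf4 or Tcf12, and Id proteins block that pairing. The neurogenins Neurog1 and Neurog2 start sensory neuron and cortical neurogenesis, Olig1 and Olig2 direct the oligodendrocyte lineage of the central nervous system, and Olig3 specifies dorsal spinal cord interneurons. Bhlhe22 is a repressor needed by retinal, dorsal horn and cortical neurons. Schwann cells, the myelinating glia of peripheral nerve, are not known to depend on the Olig factors, and genes of this kind are textbook PRC2 targets in embryonic stem cells.

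Bhlhe22 and the Olig genes form 1 branch of the family, and the relation can be seen in the coding stretch they share best. The sequences below, each of 60 bases, are from the helix-loop-helix region in GENCODE M21 transcripts, read 5′ to 3′ on the coding strand. Capitals mark bases that differ from Olig2. They are shown because so similar a stretch raises the question whether reads could be shared among the members.
Bhlhe22, coding bases 748 to 807: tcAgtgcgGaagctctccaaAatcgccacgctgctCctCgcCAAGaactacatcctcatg
Olig1, coding bases 397 to 456: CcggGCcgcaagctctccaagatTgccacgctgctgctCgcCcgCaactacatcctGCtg
Olig3, coding bases 352 to 411: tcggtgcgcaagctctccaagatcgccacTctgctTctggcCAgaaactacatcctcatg
Olig2, coding bases 424 to 483: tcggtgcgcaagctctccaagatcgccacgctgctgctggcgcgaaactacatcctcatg
Olig3 matched Olig2 at 93.3% of these bases, and Bhlhe22 and Olig1 at 85.0% each. The longest identical run between any pair of the 7 coding sequences was 29 bases, between Olig2 and Olig3. It was followed by 26 bases between Neurog1 and Neurog2 and 19 between Bhlhe22 and Olig3. A read longer than 29 bases therefore matches no 2 of these coding sequences exactly. Read length and read assignment were not checked here.

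The members fell into 2 sets by level. Bhlhe22 stood well above the floor of the table in all 8 tumors, while the other 5 members were listed at 0 in 24 of their 40 values. Per kilobase of exon, the log2 level of Bhlhe22 ran from 6.19 to 6.77 in PRC2 loss tumors and from 7.57 to 9.25 in wildtype tumors. No other member passed a log2 level of 3.02 per kilobase in any tumor. Compared between groups with limma over 20807 genes, 2 members rose in PRC2 loss (Olig1 and Olig3), 1 fell (Bhlhe22) and 3 did not pass (Neurog1, Neurog2 and Olig2). Over all genes tested, 16% were called higher and 19.6% lower in PRC2 loss, and either call was made for 35.7%, so the number of members called says little about the members as a set. The groups did not overlap for these same 3 members, against 38.3% of all genes tested. The median log2 difference of the 6 members was 0.51, which lies between the values of Olig2 and Neurog2, neither of which passed. Over all genes tested the median was -0.12, and over genes with a mean below 3 it was -0.013.

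**Figure D1:**
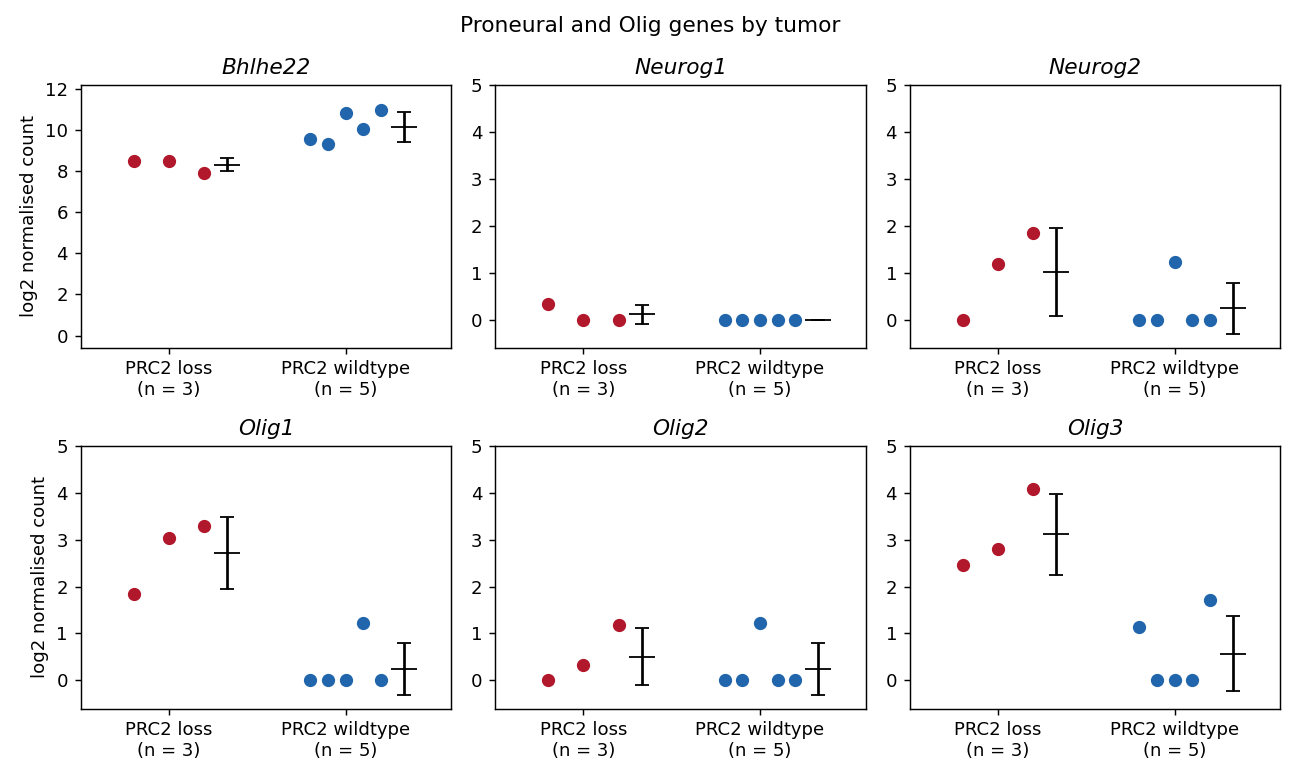
Deposited log2 normalised count (y axis) of the 6 members in each tumor, with PRC2 loss tumors in red and PRC2 wildtype tumors in blue; the black marks are the mean with its SD, and the Bhlhe22 panel has its own scale. Bhlhe22 sits between 7.94 and 8.51 in PRC2 loss and between 9.31 and 10.99 in wildtype, and Olig1 and Olig3 are the members whose PRC2 loss points all lie above every wildtype point.

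Bhlhe22, the repressor, fell in PRC2 loss, with no overlap of the groups. Its log2 values were 8.51, 8.49 and 7.94 in PRC2 loss tumors 1 to 3, against 9.55, 9.31, 10.83, 10.05 and 10.99 in wildtype tumors 1 to 5. The lowest wildtype tumor exceeded the highest PRC2 loss tumor by 0.80, and the wildtype tumors spread more widely among themselves than the PRC2 loss tumors did. Bhlhe22 averaged 8.31 ± 0.32 in the 3 PRC2 loss tumors and 10.15 ± 0.75 in the 5 wildtype tumors (mean ± SD), a log2 difference of -1.84 (SE 0.409) or 3.57-fold lower, with limma adjusted p = 0.00969. Among the 56 ways to split the tumors 3 against 5, the exact two-sided permutation p of the difference of means was 0.0357, where 0.0179 is the least possible. By animal number the Bhlhe22 values were 8.51 and 8.21 in PRC2 loss and 9.43, 10.44 and 10.99 in wildtype, so the order held between animal numbers too, though whether a number marks 1 mouse is not stated.

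The wildtype tumors with the least Bhlhe22 were tumors 1 and 2, which share an animal number. They also had the highest skeletal muscle markers: the mean log2 value of 10 muscle markers was 11.73 and 11.06 there, 3.50 to 5.58 in the other wildtype tumors, and 3.86, 5.37 and 8.90 in PRC2 loss tumors 1 to 3. No muscle marker passed the test, and the 2 with the highest mean, Myh4 and Tnnt3, had log2 differences of -1.08 and -1.89 (limma adjusted p = 0.787 and 0.501). Without wildtype tumors 1 and 2 the Bhlhe22 difference was -2.31 on the log2 scale (limma adjusted p = 0.00203). Those 2 tumors had the least Bhlhe22 in wildtype, so leaving them out had to enlarge the difference. PRC2 loss tumor 3 had the highest muscle mean and the least Bhlhe22 of its group. Without that tumor the Bhlhe22 difference was -1.65 (limma adjusted p = 0.045). Leaving out the PRC2 loss tumor with the least Bhlhe22 likewise had to shrink the difference. Between the groups, Schwann cell markers moved the opposite way to Bhlhe22: 8 of 10 rose and 0 fell, beside 16% and 19.6% of all genes tested. Their list means ran from 12.77 to 13.40 in PRC2 loss tumors and from 7.07 to 10.78 in wildtype. Within wildtype, tumors 1 and 2 had the highest Schwann means, 10.45 and 10.78, and the least Bhlhe22. Within PRC2 loss, however, tumor 3 had both the lowest Schwann mean, 12.77, and the least Bhlhe22. The part of Schwann cell markers in the Bhlhe22 difference was not tested. In bulk tumor RNA, fewer cells of a type and less RNA per cell cannot be told apart.

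In mm10 coordinates (GENCODE M21) Bhlhe22 lies on chromosome 3 from 18054174 to 18057517 on the forward strand, and its single exon fills the whole gene. Among genes of the table, the nearest starts on either side were those of Mir124-2hg, a host gene of the neuronal microRNA miR-124, and Cyp7b1, an oxysterol hydroxylase. Cyp7b1 fell too, with log2 values of 8.96, 9.10 and 9.32 in PRC2 loss tumors, against 9.92, 10.21, 10.50, 9.72 and 9.69 in wildtype (log2 difference -0.88, limma adjusted p = 0.0133). Cyp7b1 did not pass with PRC2 loss tumor 1 left out (limma adjusted p = 0.0522) or with tumors centred on housekeeping genes (log2 difference -0.31, limma adjusted p = 0.332). Mir124-2hg was near the floor in both groups and did not pass (limma adjusted p = 0.516).

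In mouse neurons Bhlhe22 works with the corepressor Prdm8, and Cdh11, a cadherin of mesenchymal and nerve-associated cells, is a target that the pair represses. Prdm8 was not called: it was at 7.74, 6.20 and 6.22 in PRC2 loss, against 5.56, 7.11, 5.28, 4.65 and 6.48 in wildtype (limma adjusted p = 0.316). Cdh11 was higher in PRC2 loss, at 15.02, 14.96 and 14.59, against 13.51, 14.29, 13.84, 13.19 and 12.48 in wildtype, and the groups did not overlap. The log2 difference was 1.40 (SE 0.37, limma adjusted p = 0.0197). That call was lost without PRC2 loss tumor 1 (limma adjusted p = 0.0707) or tumor 2 (0.0682), and with tumors of 1 animal number averaged (0.0605).

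Olig1, of oligodendrocyte maturation and repair, was near the floor in wildtype tumors and low but listed above 0 in all PRC2 loss tumors. Its log2 values were 1.85, 3.02 and 3.29 in PRC2 loss tumors 1 to 3, against 0, 0, 0, 1.23 and 0 in wildtype tumors 1 to 5. The groups did not overlap, and the gap between the lowest PRC2 loss tumor and the highest wildtype tumor was 0.62. The log2 difference was 2.47 (SE 0.437, limma adjusted p = 0.00367), and the exact permutation p was 0.0179, the least possible here. Tumors 2 and 3 of PRC2 loss, which share an animal number, both lay above tumor 1 in Olig1.

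Olig3, the dorsal spinal cord factor, showed the same order of groups. Its log2 values were 2.45, 2.80 and 4.08 in PRC2 loss tumors, against 1.13, 0, 0, 0 and 1.70 in wildtype tumors. The log2 difference was 2.54 (SE 0.551, limma adjusted p = 0.00865; exact permutation p = 0.0179). Averaging tumors that share an animal number ended this call (log2 difference 2.19, limma adjusted p = 0.0672), while Olig1 and Bhlhe22 stayed past the threshold (limma adjusted p = 0.0338 and 0.0465).

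Olig2, which specifies motor neurons and oligodendrocytes, did not pass, unlike its neighbour Olig1, and the difference between both genes was not tested. Olig2 was listed at 0, 0.33 and 1.18 in PRC2 loss tumors, against 0, 0, 1.22, 0 and 0 in wildtype, so the groups overlapped (log2 difference 0.26, SE 0.382, limma adjusted p = 0.616; exact permutation p = 0.643). Both genes lie on mouse chromosome 16 on the forward strand, Olig2 from 91225457 to 91228677 and Olig1 from 91269772 to 91271933 in mm10, and their starts are 44315 bases apart. No gene of the table starts between them. Beyond Olig1, the next start was that of Ifnar2, a type I interferon receptor subunit, which did not pass (10.81, 11.34 and 11.56 in PRC2 loss, against 11.63, 12.03, 10.90, 11.06 and 10.90 in wildtype; limma adjusted p = 0.877). On the other side of Olig2, 4932438H23Rik did not pass either (limma adjusted p = 0.161). The annotation places Gm15966, a long noncoding RNA, across Olig1 on the opposite strand, and since no source says whether counting used strand, reads of this pair cannot be told apart. Olig3 lies on chromosome 10 from 19356533 to 19358604, and neither flanking noncoding gene, Gm20139 or Gm33104, passed (limma adjusted p = 0.186 and 0.682).

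Neurog1 and Neurog2, the neurogenins, gave almost no signal in either group. Neurog1 was listed at 0.33 in PRC2 loss tumor 1 and at 0 in the other 7 tumors (limma adjusted p = 0.601). Neurog2 was at 0, 1.18 and 1.85 in PRC2 loss, against 0, 0, 1.22, 0 and 0 in wildtype (log2 difference 0.76, SE 0.462, limma adjusted p = 0.233; exact permutation p = 0.375). PRC2 loss tumors 2 and 3, from 1 animal number, were thus the PRC2 loss tumors above 0 for Neurog2, as they were for Olig2. Neurog1 lies on chromosome 13 from 56250478 to 56252163 and Neurog2 on chromosome 3 from 127633135 to 127635631. Of the genes beside Neurog2, Alpk1, an innate immune kinase, was higher in PRC2 loss at 10.30, 10.68 and 10.39, against 9.15, 9.58, 8.68, 8.61 and 8.69 in wildtype (limma adjusted p = 0.00255), and Zgrf1 did not pass (limma adjusted p = 0.248). Neither gene beside Neurog1 passed, with limma adjusted p = 0.0718 for Tifab and 0.825 for the chemokine gene Cxcl14.

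How far down the table can resolve these genes differed between the groups. Low values come in ties, many genes sharing 1 value, as genes with equal small read counts do. The lowest value shared by at least 100 genes was 0.33 in all PRC2 loss tumors and between 1.13 and 1.70 in wildtype tumors, and it was held by 707 to 861 genes. Every one of the 5 wildtype values above 0 among the low members lay on that lowest tie, while of the 11 such values in PRC2 loss tumors 2 did. A value of 1.18 was the first such tie in wildtype tumor 2 and the third in PRC2 loss tumors 2 and 3. Between 1822 and 2113 genes were at 0 in each PRC2 loss tumor and between 2686 and 3372 in each wildtype tumor. The highest value of Olig2 in PRC2 loss, 1.18, was at or below the lowest tie of wildtype tumors 2 to 5, and that of Neurog1, 0.33, was below it in all 5. All Olig1 and Olig3 values in PRC2 loss cleared that of every wildtype tumor. Of 4895 genes with a mean below 3 over all tumors, 12.9% were called higher and 6.5% lower, and the groups did not overlap for 19.5%. The part of sequencing depth in the Olig1 and Olig3 differences was not tested.

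**Figure D2:**
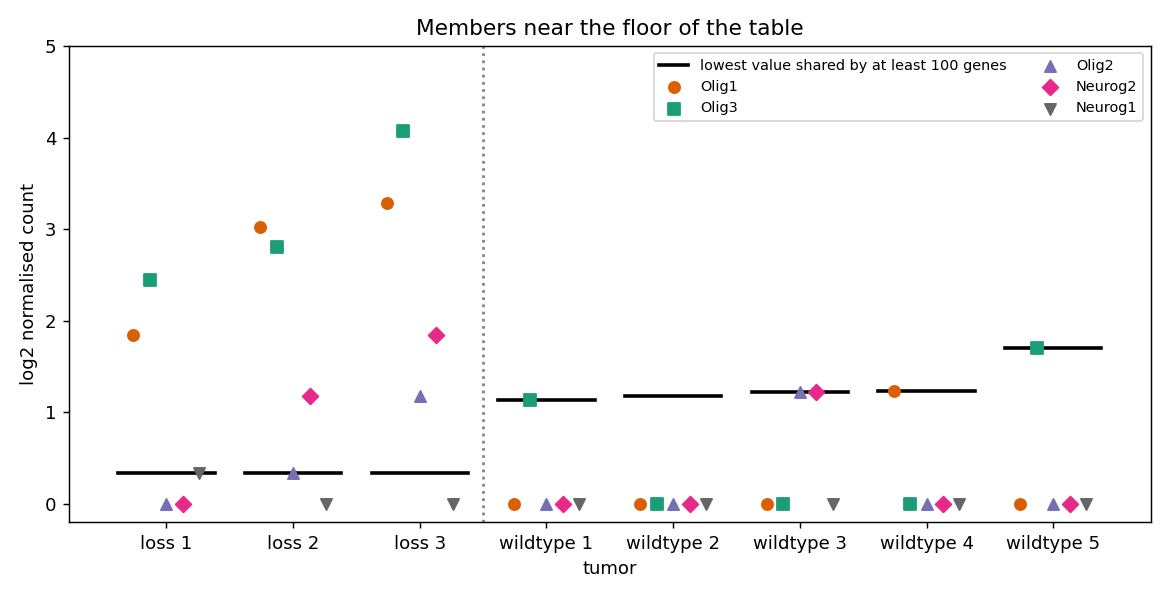
Deposited log2 normalised count (y axis) of the 5 low members in each tumor (x axis), with the black bar marking the lowest value that at least 100 genes share in that tumor. Wildtype points above 0 sit on the bar, at 1.13 to 1.70, whereas Olig1 and Olig3 stand above the bar, at 1.85 to 4.08, in all 3 PRC2 loss tumors.

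Sequence before the start was compared with RefSeq promoters (GRCm38.p6) for 5 of the 7 genes. In the 250 bases before the RefSeq start, Olig3 held 4 CpG dinucleotides, Olig2 22, Neurog1 29, Neurog2 8 and Neurod1 22. These windows can reach into the GENCODE M21 gene, as for Olig2 (window to 91225549, gene from 91225457). The same held for Neurod1 on the reverse strand (window from 79456637, gene to 79456751). The median over 32851 promoters was 6 CpG dinucleotides. Olig3, which rose, had fewer than that median, and Olig2, Neurog1 and Neurog2, which did not pass, had more. Olig1, the other riser, and Bhlhe22 had no promoter matched here, so CpG content cannot be set against the group differences. The E-box letters CANNTG, which read the same on both strands, occurred once each in the Olig3 and Neurod1 windows and in none of the other 3, and in 66.2% of all promoters. A match of these letters is a description and not a binding site.

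The partners and inhibitors of the bHLH factors were well expressed in both groups. Of the 3 E proteins, the shared dimer partners, none passed: Tcf4 was at 13.06, 13.48 and 13.39 in PRC2 loss, against 13.35, 13.08, 13.88, 13.45 and 13.99 in wildtype (limma adjusted p = 0.445). Tcf12 averaged 12.54 with an SD of 0.09 in PRC2 loss, against 12.78 with an SD of 0.30 in wildtype (limma adjusted p = 0.32), and both signs turn under housekeeping centring. Tcf3, singled out after its values were seen, lay just outside the threshold with no overlap of the groups (log2 difference -0.82, limma adjusted p = 0.0505). Of the 4 Id genes 2 rose and 0 fell, beside 16% higher and 19.6% lower over all genes tested. Id4, which restrains oligodendrocyte differentiation, was at 9.86, 10.43 and 10.26 in PRC2 loss, against 7.73, 8.38, 7.33, 7.64 and 7.45 in wildtype (log2 difference 2.48, limma adjusted p = 0.000501). Id1 was at 9.87, 10.34 and 10.51 in PRC2 loss, against 9.18, 9.42, 8.30, 8.44 and 8.27 in wildtype (log2 difference 1.52, limma adjusted p = 0.00739). The groups did not overlap for either gene, and Id2 and Id3 did not pass. With tumors of 1 animal number averaged, Id1 did not pass (limma adjusted p = 0.0524).

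Among 9 Hes and Hey genes, repressors that mostly act below Notch receptors, 2 rose and 1 fell. For comparison, 16% of all genes tested rose and 19.6% fell. Hey1 was at 9.89, 9.47 and 10.13 in PRC2 loss, against 8.55, 7.91, 7.97, 7.77 and 8.51 in wildtype (3.23-fold higher, limma adjusted p = 0.00181). Hey2 was at 9.45, 7.97 and 8.09 in PRC2 loss, against 5.14, 5.23, 5.23, 5.15 and 3.51 in wildtype (12.5-fold higher, limma adjusted p = 0.00197). Hes7, the oscillator of somite segmentation, was at 0.33, 1.18 and 0.65 in PRC2 loss, against 2.88, 4.12, 1.95, 3.96 and 3.94 in wildtype (6.28-fold lower, limma adjusted p = 0.00795), so it lay near the floor in PRC2 loss. The list median was 0.72 on the log2 scale, beside -0.12 over all genes.

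Genes that act downstream of neurogenins did not move as 1 block. Of 15 such genes 3 rose, 1 fell and 11 did not pass, with a median log2 difference of 0.25. The shares over all genes tested were 16% higher and 19.6% lower. Ebf2 and Ebf3, helix-loop-helix factors of neuronal differentiation that are also used by mesenchymal cells, rose 36.3-fold and 7.19-fold (limma adjusted p = 0.000841 and 0.000482). Ebf2 stood at 12.11, 12.89 and 12.31 in PRC2 loss, against 8.44, 8.25, 7.64, 6.10 and 5.85 in wildtype. Dll3, a Notch ligand, rose at low level, with 1.48, 2.54 and 2.36 in PRC2 loss, against 0, 1.18, 0, 0 and 0 in wildtype (limma adjusted p = 0.00641). Insm1, a zinc finger factor of neuronal and endocrine progenitors, fell, with 1.17, 0.33 and 0.65 in PRC2 loss, against 4.64, 6.34, 5.72, 3.80 and 4.54 in wildtype (limma adjusted p = 0.0016). The groups of these 4 genes did not overlap, and the sign of Insm1 was opposite to that of the others.

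Other neural bHLH genes were mostly near the floor as well. Of 12 listed, 8 were in the table and 7 varied between tumors. Of these 1 rose and 0 fell, beside 16% higher and 19.6% lower over all genes tested. The riser was Nhlh2, a factor of hypothalamic and sensory neurons, with 2.87, 4.50 and 3.80 in PRC2 loss and 0 in all 5 wildtype tumors (limma adjusted p = 0.000335). Atoh1, the hair cell and cerebellar granule neuron factor, was at 0 in all 8 tumors.

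Larger differences were found among bHLH factors of other tissues, where 5 of 20 rose and 2 fell. The number called is close to the overall share, as 16% of all genes tested rose and 19.6% fell. Tcf21, a factor of kidney, heart and visceral mesenchyme, was at 8.93, 9.68 and 9.09 in PRC2 loss, against 1.13, 0, 0, 1.23 and 0 in wildtype (limma adjusted p = 4.58e-05). Tal1, the blood and endothelial factor, was at 11.33, 11.30 and 11.34 in PRC2 loss, against 7.55, 7.46, 7.68, 7.60 and 7.58 in wildtype (limma adjusted p = 1.85e-05). Hand2, a factor of heart and sympathetic neurons, was at 8.11, 6.06 and 5.10 in PRC2 loss, against 1.63, 0, 0, 0 and 0 in wildtype (limma adjusted p = 0.000732). Tcf23 averaged 8.99 with an SD of 2.18 in PRC2 loss, against 2.16 with an SD of 1.28 in wildtype (limma adjusted p = 0.00216). The remaining 3, named after their values were seen, were Mesp2 of somite segmentation, with a log2 difference of 2.76, Scx of tendon, with -3.30, and Bhlha15 of secretory cells, with -2.61 (adjusted p in limma 0.00328, 0.00704 and 0.00245). The differences of Olig1 and Olig3, at 2.47 and 2.54, were thus smaller than that of any of these 5 risers, all on the log2 scale.

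**Figure D3:**
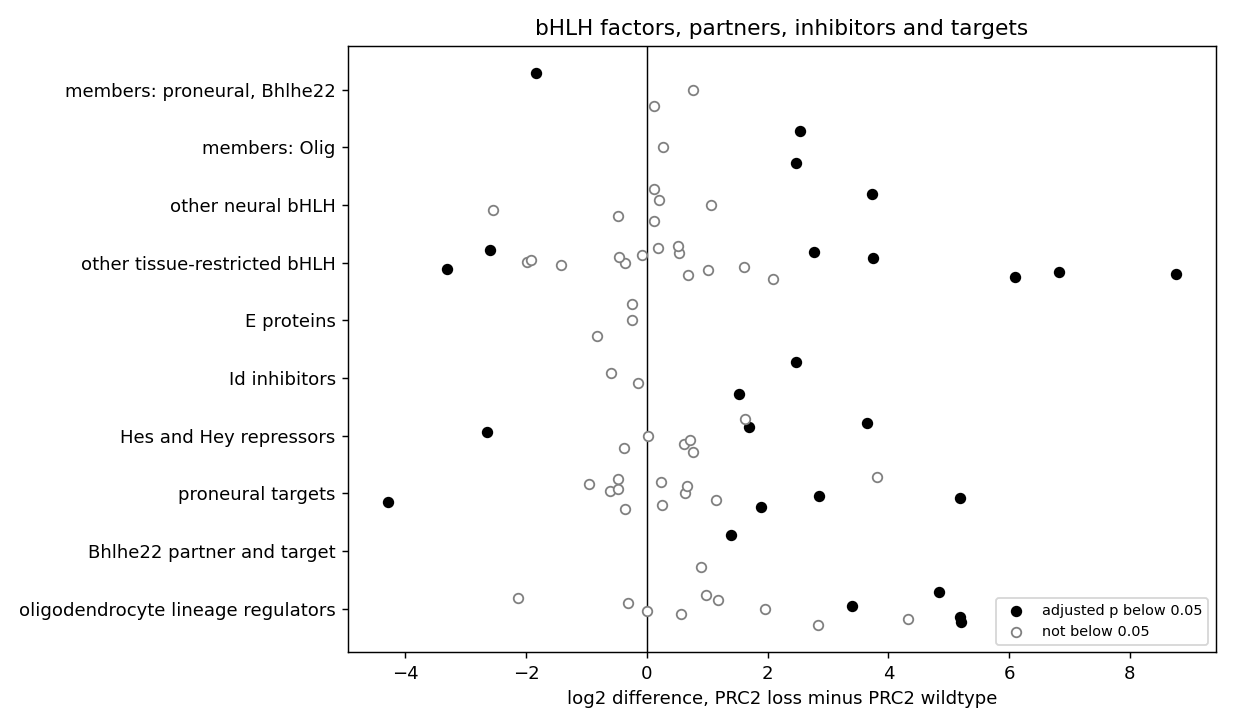
Log2 difference, PRC2 loss minus PRC2 wildtype (x axis), for each gene of the bHLH lists (y axis), 1 point a gene, filled where the limma adjusted p is below 0.05. Olig1 and Olig3 are filled at 2.47 and 2.54 and Bhlhe22 at -1.84, no E protein is filled, and the right-most point, at 8.76, is Tcf21.

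Genes of the oligodendrocyte lineage that work beside the Olig factors rose in part. Of 13 regulators 4 rose, 0 fell and 9 did not pass, with a median log2 difference of 1.96. Among all genes tested 16% rose and 19.6% fell. Nkx6-1, a homeobox factor of the ventral neural tube, was at 5.83, 5.82 and 5.37 in PRC2 loss, against 0, 0, 2.45, 0 and 0 in wildtype (limma adjusted p = 0.000768). Sox8, a partner of Sox10 in glia, was at 8.85, 11.48 and 9.32 in PRC2 loss, against 5.51, 6.47, 5.23, 2.45 and 3.74 in wildtype (limma adjusted p = 0.00473). Bcas1, a protein of early myelinating glia, and Myrf, a regulator of central myelin genes, were the other 2 (limma adjusted p = 0.000773 and 0.0114). Peripheral glia express Sox8 and Bcas1 too.

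Markers of oligodendrocytes, neurons, astrocytes and Schwann cells were called in part. Over all genes tested, 16% were called higher and 19.6% lower. The counts of oligodendrocyte, neuron and astrocyte markers called thus say little about these lists. Of 6 oligodendrocyte-restricted myelin genes 2 rose, Mobp (limma adjusted p = 0.0114) and Hapln2 (0.0343), with list means from 1.84 to 2.23 in PRC2 loss tumors and from 0.90 to 1.50 in wildtype; Mog stayed among the 4 that did not pass, and Klk6 was at 0 in all PRC2 loss tumors. Of 18 neuron markers 4 rose and 1 fell, and list means ran from 4.50 to 4.82 in PRC2 loss and from 3.13 to 4.98 in wildtype. The risers included Slc17a7, Rbfox3 and Prph, and Syn1, named after its values were seen, fell at the edge of the threshold (log2 difference -1.69, limma adjusted p = 0.04999), a call lost without any 1 tumor except wildtype tumor 4 (limma adjusted p up to 0.138). Of 6 astrocyte markers 2 rose, Gfap (limma adjusted p = 0.0237), which Schwann cells also express, and Slc1a2 (0.0456). Schwann markers were above 0 in every tumor, and Mbp, S100b and Egr2 were among those higher in PRC2 loss (limma adjusted p = 0.000269, 0.00174 and 0.00835). The part of these cell types in the Olig1 and Olig3 differences was not tested. The call for Hapln2 was lost without PRC2 loss tumor 1 or 2 or wildtype tumor 2 or 5 (limma adjusted p from 0.0584 to 0.115). That for Rbfox3 was lost without PRC2 loss tumor 2 (limma adjusted p = 0.0585), Prph without wildtype tumor 3 or 5 (0.0536 and 0.0513), Gfap without PRC2 loss tumor 1 or 2 (0.0862 and 0.0916), and Slc1a2 without any 1 of 7 tumors (0.0597 to 0.122). With tumors of 1 animal number averaged, Mobp, Hapln2, Rbfox3, Prph, Syn1, Gfap and Slc1a2 did not pass (limma adjusted p from 0.05005 to 0.131).

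The genes whose values followed the members most closely over the 8 tumors were found by Pearson's correlation among at most 15387 genes, given as a description since the tumors share their group. For Bhlhe22 they were Nupl1, a nucleoporin (r = 0.994), Scoc (0.988) and Nhlrc2 (0.988), all lower in PRC2 loss by 0.53 to 0.91 on the log2 scale, with Nupl1 and Scoc turning to 0.04 and 0.0049 under housekeeping centring. The call of Nupl1 was lost without any 1 tumor except wildtype tumors 1 and 2 (limma adjusted p up to 0.0985), and those of Scoc and Nhlrc2 without PRC2 loss tumor 2 or 3 (up to 0.0811). For Olig1 they were H2-T-ps, an MHC pseudogene whose reads are uncertain (r = 0.987), Nr3c2, the mineralocorticoid receptor (0.985), and Sowaha (0.979). For Olig3 they were Mindy1, a deubiquitinase (r = 0.988), Pcdha5, a clustered protocadherin whose exons are shared within its cluster (0.980), and Chst1, a keratan sulfate sulfotransferase (0.973). These 6 genes were higher in PRC2 loss (limma adjusted p from 0.00122 to 0.0248), and the calls of H2-T-ps without PRC2 loss tumor 2 or 3 or wildtype tumor 3, and of Mindy1 without PRC2 loss tumor 3, were lost (0.0506 to 0.0827). With tumors of 1 animal number averaged, none of the 3 genes of Bhlhe22 passed, nor did H2-T-ps, Mindy1 and Pcdha5 (limma adjusted p from 0.0708 to 0.131).

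**Figure D4:**
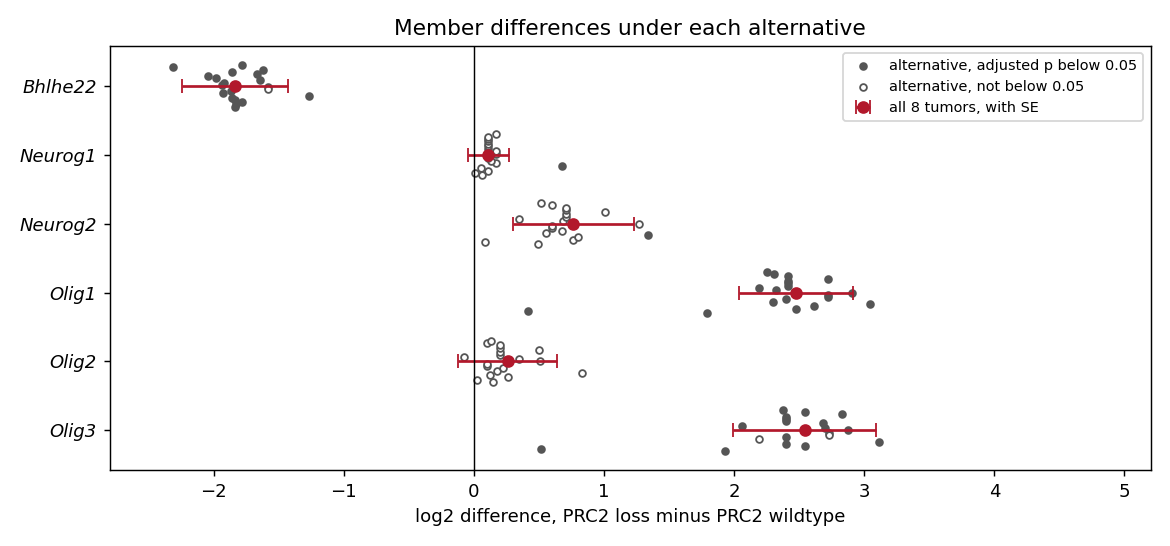
Log2 difference, PRC2 loss minus PRC2 wildtype (x axis), of each member with all 8 tumors (red, with its SE) and under each alternative processing (grey, filled where the limma adjusted p is below 0.05). Bhlhe22 stays between -2.31 and -1.27, Olig1 stays filled throughout with values from 0.41 to 3.04, and Olig2 lies on both sides of 0.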

How the data were processed

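RNA was extracted with Trizol and made into poly-A TruSeq libraries, per the labels. Tools listed in the submitters' processing notes are Trim Galore, STAR 2.6 and Partek 7.0, with build mm10; their order and the annotation, counting, strand use and filters were not given in the sources used here. Deposited by the authors were quantile-normalized log2 gene counts, so sequencing depth is unknown and counting error cannot be given. What was added before the log is not stated, and the floor differs between groups, so folds of low genes, 2 to the power of a log2 difference, may be too small or too large. None of 15 housekeeping genes was at 0 in any tumor, and no pair of columns was identical.

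Tumors were grouped by title, 3 PRC2 loss and 5 wildtype. Titles call them biological replicates, but they carry 2 and 3 animal numbers; if a number marks 1 mouse, p-values are too small. The 136 genes with 1 value throughout were dropped, and 20807 were tested in limma 3.58.1 (R 4.3.3), two-sided, variances trended on the mean, no pseudocount, Benjamini-Hochberg adjustment over all genes, threshold 0.05. The fit was tested on simulated data with normal noise, shifting only genes with a mean at or above the median. That test does not cover genes near the floor, such as Olig1 and Olig3. Lists were described by counts and medians. Members and lists were chosen with earlier results of these data known. Named were the members, up to 4 genes a list by adjusted p among those past the threshold (by mean where fewer than 2 passed), the 3 genes most correlated with each member above 0 in at least 4 tumors, and neighbouring genes of the table. Correlated genes needed a mean of at least 3 in the higher group, without predicted genes. Positions came from GENCODE M21 (GRCm38). Alternatives were a filter on low genes, pseudocounts, variance priors, array weights, housekeeping centring, animal numbers averaged or as a block, the replicate number as a block, and each tumor left out; a fit of replicates 1 to 3 without the block was added after seeing the data. Some genes that the naming rule picks are not reported here.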

Additional observations from a re-analysis of the deposited data

Results flagged for a closer look

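A single wildtype tumor stood apart from the other 4 for 11 of the 69 genes named, by the ratio of its gap to the range of the group, with a limit of 0.71 that chance passes in about 1 in 20 groups of continuous values. That rate does not apply to 9 of the 11, where the other 4 wildtype tumors are at 0 and the ratio is 1 whatever the value, so the number of such genes says nothing beyond these zeros. Among the members these were Neurog2 and Olig2 in wildtype tumor 3, both at 1.22, and Olig1 in wildtype tumor 4, at 1.23, in each case the only wildtype tumor above 0. The same holds for Hand2 at 1.63 and Hand1 at 1.13 in wildtype tumor 1, Dll3 at 1.18 in wildtype tumor 2, Nkx6-1 at 2.45 in wildtype tumor 3, and Sowaha at 1.97 and Mir124-2hg at 1.23 in wildtype tumor 4. Hey2 in wildtype tumor 5, at 3.51, lay below the other 4. Nkx2-2, a homeobox factor of the oligodendrocyte lineage, was at 7.40 in wildtype tumor 3, against 0 to 1.23 in the other 4 wildtype tumors.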

How the results depend on the processing

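With all 8 tumors 3337 genes were higher and 4087 lower in PRC2 loss. The counts were 1731 and 2545 with only the more abundant genes kept (mean at or above the median), 7560 and 1666 with tumors centred on 15 housekeeping genes, 9 of which were themselves lower, 2113 and 2113 with animal numbers averaged, and 1917 and 1579 with the replicate block. Leaving out 1 tumor gave 2555 to 3413 higher and 2972 to 4284 lower genes, and 2 members higher and 1 lower each time. Members higher numbered 0 with the low filter, which leaves only Bhlhe22, 4 with housekeeping centring, 1 with animal numbers averaged and 1 with the replicate block, where members lower numbered 0. Centring gave all genes a median log2 difference of 0.454 (-0.124 without it) and also moves values listed at 0, and under it Neurog1 and Neurog2 passed (limma adjusted p = 0.03 and 0.0343). Same-numbered tumors showed no clear joint deviation (correlations -0.155, 0.0945 and -0.0482), and 1 of 6 tumors correlated best with its own number. With so few tumors this cannot show that they share only a number. Under the replicate block Bhlhe22 and Olig3 had limma adjusted p = 0.0826 and 0.051. Without the block in the same 6 tumors Bhlhe22 passed, limma adjusted p = 0.0387. Averaging animal numbers lost the calls of 16 of the 49 named genes that passed. Pseudocounts of 1 and 16 brought the Olig1 difference to 1.79 and 0.41 on the log2 scale.

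Signs turned as follows, on the log2 scale. Housekeeping centring gave Tcf4 0.33, Tcf12 0.33, Nupl1 0.044, Scoc 0.0049, Zgrf1 0.17, Ifnar2 0.50 and Gm33104 0.23, and Cyp7b1 lost its call. Without wildtype tumors 1 and 2, Tnnt3 was 0.69, Myh4 2.68 and Ifnar2 0.28. Array weights gave Myh4 0.0085 and Ifnar2 0.072. Replicates 1 to 3 gave Cxcl14 -0.87 with or without the replicate block. Leaving out 1 tumor gave ranges across 0, Olig2 from -0.077 to 0.511, Mir124-2hg from -0.079 to 0.73, Hand1 from -0.226 to 3.25, Cxcl14 from -0.259 to 1.07, Myh4 from -2.49 to 0.602 and Ifnar2 from -0.229 to 0.146. The causes were not tested.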

Other observations

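Some neural factors spread widely within a group; they were singled out after their values were seen. Srrm4, a splicing regulator of neurons, was at 8.35, 5.66 and 5.12 in PRC2 loss tumors, against 0, 0, 7.54, 5.27 and 0 in wildtype, where both tumors above 0 carry animal number 9. Srrm4 did not pass with all 8 tumors (limma adjusted p = 0.162) and passed as higher without wildtype tumor 3 (0.0394). Nkx2-2 was at 6.73, 6.78 and 6.04 in PRC2 loss, against 1.13, 1.18, 7.40, 1.23 and 0 in wildtype (limma adjusted p = 0.0573), and without wildtype tumor 3 its adjusted p in limma was 0.000761. Hand1, a bHLH factor of heart and placenta, was at 6.96 in PRC2 loss tumor 2 and 0 in PRC2 loss tumors 1 and 3, against 1.13 in wildtype tumor 1 and 0 in the other 4.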
